A study of Mus musculus with 56 samples.

Results

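The 31 genes described here are SREBP-controlled genes chosen by name, 21 of the sterol branch and 10 of the fatty acid branch, out of 18194 genes with a probe set that is annotated to them alone. Of the 31, 30 have such a probe set, and all 30 passed the filter on low means in both tissues, so 20 sterol and 10 fatty acid genes are measured below. Acat2, the cytosolic acetoacetyl-CoA thiolase, was not analysed here. In each tissue a gene is read from its single-gene probe set with the highest mean, on the log2 scale of the array, so a difference of 1 is a doubling of signal.

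RNA came from whole colon and whole jejunum of BALB/C mice, within a tissue each array from a different mouse, 28 arrays per tissue. Array names number the colon and jejunum arrays alike, and whether the tissues share mice was not tested. The mice were wild type (WT) or carried a knockout of Tweak (KO), the gene Tnfsf12, a cytokine of the TNF family. They are labelled 0, 6 or 24 h after 3 Gy of ionizing radiation. Whether mice of the 0 h groups received radiation is not stated, nor is age or sex. In colon the WT groups hold 5, 4 and 4 arrays at 0, 6 and 24 h and the KO groups 5 each, and in jejunum the WT groups hold 5, 5 and 4 and the KO groups 5, 4 and 5.

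Cells make cholesterol and fatty acids with enzymes whose genes are switched together by the sterol regulatory element binding proteins, the SREBP transcription factors. When membranes of the endoplasmic reticulum hold little sterol, an escort protein carries SREBP to the Golgi, where it is cut, and the freed fragment enters the nucleus. Insig1 holds the complex back when sterol is plentiful. The protein from Srebf2 mainly drives the sterol branch, from acetyl-CoA through mevalonate, isoprenoids, squalene and lanosterol to cholesterol, and the protein from Srebf1 mainly drives the fatty acid branch, from citrate to long, desaturated fatty acids. In the gut wall these enzymes supply membrane for an epithelium that is replaced continuously.

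A probe set shared by Tnfsf12 and its read-through transcript stood at 3.71 to 4.67 in WT colon and 2.28 to 2.81 in KO colon, and at 2.77 to 4.09 and 2.34 to 2.75 in jejunum. No array went against its genotype label. In jejunum the ranges nearly met, close to the lowest array value of 2.32, so the label check is weak there. Another probe set, annotated also to Tnfsf13, overlapped between the genotypes. All WT arrays lie in 1 array batch and all KO arrays but replicate 1 of each 0 h group in the other, so genotype and batch cannot be told apart. Some arrays stood apart. In colon, replicate 2 of WT 0 h had a mean of 11.15 over markers of small-intestinal absorptive cells, against 6.73 to 9.01 on the other arrays. In jejunum, replicate 2 of WT 24 h and replicate 3 of KO 0 h had ileal transcripts, with means of 11.66 and 11.22 over distal markers against 6.43 to 8.78 elsewhere. The fit was made per tissue with limma over all 6 groups and 13645 genes, and a change is called at a Benjamini-Hochberg adjusted p under 0.05 over all of them.

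The choice of genes did not read promoter sequence from the tables used here, although SREBP control is known in part from such elements. RefSeq windows on the mouse build GRCm38.p6, from 250 bases before to 50 after each start site, were found for 24 of the 31 genes. Searched on both strands, CCAAT, the core of the box bound by NF-Y, was found for 16 of 17 sterol genes (94.1%) and 4 of 7 fatty acid genes (57.1%), against 41.1% of all 27025 genes with a window. The sterol gene without a CCAAT was Acat2. The sterol regulatory element core TCACNCCAC was found in 1 of the 17 sterol genes, Hmgcs1, and in 1.44% of all genes. The E-box CACGTG was in 23.5% of the sterol genes and 0 of the 7 fatty acid genes, against 8.09% of all genes. CATGTG was in 5.88% and 28.6%, against 15.9%. A match describes the letters only. The windows of Idi1, Mvd and Lss are shown because these fell most in WT colon among the sterol genes with a window, that of Hmgcs1 for its element, and that of Fasn for the fatty acid branch. They are printed 5′ to 3′ on the gene's strand, with every CCAAT (or its reverse complement ATTGG) and the TCACNCCAC match in capitals.
Hmgcs1, chr13:119690101-119690400, plus strand: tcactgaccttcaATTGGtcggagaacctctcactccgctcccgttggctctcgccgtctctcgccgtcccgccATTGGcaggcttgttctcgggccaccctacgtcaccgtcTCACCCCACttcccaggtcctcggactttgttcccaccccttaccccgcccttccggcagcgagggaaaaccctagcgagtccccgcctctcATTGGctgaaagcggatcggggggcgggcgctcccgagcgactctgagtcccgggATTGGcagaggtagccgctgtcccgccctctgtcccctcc
Mvd, chr8:122443373-122443672, minus strand: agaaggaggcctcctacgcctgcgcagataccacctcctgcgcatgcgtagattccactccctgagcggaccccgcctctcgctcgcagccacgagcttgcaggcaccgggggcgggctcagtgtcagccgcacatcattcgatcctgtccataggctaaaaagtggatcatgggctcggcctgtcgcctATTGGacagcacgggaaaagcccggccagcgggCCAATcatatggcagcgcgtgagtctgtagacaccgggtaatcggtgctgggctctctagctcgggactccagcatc
Idi1, chr13:8885356-8885655, plus strand: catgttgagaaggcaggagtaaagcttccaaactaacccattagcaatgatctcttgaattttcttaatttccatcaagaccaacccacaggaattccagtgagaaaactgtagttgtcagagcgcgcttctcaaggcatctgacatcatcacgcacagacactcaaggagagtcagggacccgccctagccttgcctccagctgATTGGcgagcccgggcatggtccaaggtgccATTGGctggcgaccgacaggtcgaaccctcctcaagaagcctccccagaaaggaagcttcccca
Lss, chr10:76531355-76531654, plus strand: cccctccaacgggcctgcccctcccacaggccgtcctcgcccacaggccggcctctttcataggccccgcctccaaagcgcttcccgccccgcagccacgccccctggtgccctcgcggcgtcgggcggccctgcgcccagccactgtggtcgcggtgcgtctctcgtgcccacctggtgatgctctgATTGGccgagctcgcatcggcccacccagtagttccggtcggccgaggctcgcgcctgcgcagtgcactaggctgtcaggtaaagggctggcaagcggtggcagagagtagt
Fasn, chr11:120824498-120824797, minus strand: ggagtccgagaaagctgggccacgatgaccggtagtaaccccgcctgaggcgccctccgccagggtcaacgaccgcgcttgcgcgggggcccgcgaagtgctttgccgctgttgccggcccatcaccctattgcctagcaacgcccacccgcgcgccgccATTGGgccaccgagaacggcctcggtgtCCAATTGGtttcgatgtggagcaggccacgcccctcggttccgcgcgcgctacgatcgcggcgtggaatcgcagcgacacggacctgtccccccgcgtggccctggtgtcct
In Hmgcs1 the element lies at positions -137 to -129 from the start site, among 4 CCAAT matches. Mvd and Idi1 hold 2 CCAAT matches each, and Lss holds 1, at -62 to -58. Fasn holds 3, of which those at -62 to -58 and -59 to -55 overlap on opposite strands.

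In WT colon at 24 h, 11 sterol genes fell from their level at 0 h, among them Fdps, Idi1 and Mvd of isoprenoid synthesis and Lss and Cyp51 around lanosterol. The test called 11 of the 20 sterol genes lower and 0 higher, and 3 of the 10 fatty acid genes lower and 0 higher, against 2.51% of all genes called lower. The median change was -0.69 in the sterol branch and -0.60 in the fatty acid branch, against 0.01 over all genes tested, and all 20 sterol genes had a change below 0. Fewer cells of a type and less RNA per cell cannot be told apart in whole tissue.

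Among the enzymes of the mevalonate and isoprenoid steps, Fdps, Idi1 and Mvd were called. Fdps, which joins isoprene units into farnesyl pyrophosphate, stood at 8.93, 8.09, 9.52, 9.01 and 8.11 on the 5 arrays at 0 h and at 8.20, 6.48, 6.90 and 7.81 on the 4 arrays at 24 h. Those groups overlapped through the highest 24 h array, and Fdps fell by 1.38 ± 0.303 (SE; 2.61-fold, adjusted p = 0.00815). Idi1, which interconverts the 2 isoprene building blocks, stood at 10.53, 9.47, 10.51, 10.54 and 10.11 at 0 h and at 9.67, 8.18, 8.13 and 9.73 at 24 h, and fell by 1.30 ± 0.313 (adjusted p = 0.0158). Mvd, the decarboxylase that ends the mevalonate steps, stood at 7.07, 6.40, 7.10, 7.0 and 6.87 at 0 h and at 6.39, 5.01, 5.06 and 6.06 at 24 h. Its groups did not overlap, and it fell by 1.26 ± 0.23 (2.39-fold, adjusted p = 0.00198). Of the genes upstream of Mvd, Hmgcs1 (-0.79 ± 0.249, adjusted p = 0.0637), Mvk (-0.36 ± 0.124, 0.0836) and Pmvk (-0.36 ± 0.175, 0.251) did not pass. For Hmgcs1 and Mvk this depended on the choice of probe set. With the mean of all single-gene probe sets, Hmgcs1 (-1.04 ± 0.238, adjusted p = 0.0134) and Mvk (-0.63 ± 0.119, 0.00311) were called lower.

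Fdft1, Sqle and Lss, which make squalene and turn it into lanosterol, were called. Lss, which closes squalene epoxide into lanosterol, stood at 7.14, 7.01, 7.75, 7.41 and 7.08 at 0 h and at 6.90, 5.86, 5.79 and 6.64 at 24 h, without overlap, and fell by 0.98 ± 0.196 (1.98-fold, adjusted p = 0.00423). Sqle, the squalene epoxidase just before it, stood at 8.82, 8.45, 9.14, 9.20 and 8.46 at 0 h and at 8.60, 7.05, 7.36 and 8.36 at 24 h, and fell by 0.97 ± 0.261 (adjusted p = 0.0301). Fdft1, the squalene synthase that commits isoprenoids to sterol, fell by 0.68 ± 0.199 (adjusted p = 0.0455). After lanosterol, the demethylase Cyp51 (-0.80 ± 0.214), the reductase Tm7sf2 (-0.69 ± 0.155) and the dehydrogenase Nsdhl (-0.69 ± 0.158) fell, with adjusted p from 0.00946 to 0.0297. Msmo1 (-0.81 ± 0.247, adjusted p = 0.0545) and Hsd17b7 (-0.38 ± 0.218, 0.339), which act beside Nsdhl, did not pass. The last enzymes were not called. Sc5d had a change of -0.06 ± 0.102, Ebp of -0.20 ± 0.089 and Dhcr7, which makes cholesterol itself, of -0.40 ± 0.141.

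Among the regulators, Stard4, a carrier that moves sterol between membranes, was called. It stood at 9.63, 9.15, 9.41, 9.28 and 9.20 at 0 h and at 8.86, 8.12, 8.42 and 8.40 at 24 h, with no overlap, and fell by 0.89 ± 0.159 (adjusted p = 0.00169). Insig1, the brake on SREBP release and itself an SREBP target, fell by 0.65 ± 0.176 (adjusted p = 0.0302), also without overlap. Srebf2, the sterol-branch factor, had a change of -0.21 ± 0.102 and did not pass (adjusted p = 0.237). Groups did not overlap for 4 of the 20 sterol genes and 2 of the 10 fatty acid genes, always lower at 24 h, against 1.87% of all genes.

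In the fatty acid branch, Scd2, a desaturase that makes monounsaturated fatty acids, changed most at 24 h. Its signal was 13.30, 12.53, 13.39, 13.05 and 12.94 at 0 h and 10.67 on replicate 2 and 11.90 to 12.27 on the other 3 arrays at 24 h, and it fell by 1.33 ± 0.227 with no overlap (2.51-fold, adjusted p = 0.00118). Srebf1, the fatty-acid-branch factor, stood at 8.46, 8.16, 8.36, 8.25 and 8.19 at 0 h and at 7.82, 7.45, 7.55 and 7.53 at 24 h. The highest array at 24 h lay below the lowest array at 0 h, and Srebf1 fell by 0.69 ± 0.121 (adjusted p = 0.00135). Fasn, which assembles palmitate, stood at 8.95, 9.10, 9.70, 9.21 and 8.67 at 0 h and at 8.92, 8.06, 7.52 and 8.80 at 24 h. Those groups overlapped, and Fasn fell by 0.80 ± 0.234 (adjusted p = 0.045). Acly, Acaca, Scd1, Fads1, Fads2 and Me1 had changes from -0.69 to -0.43 and did not pass, and Elovl6, the elongase after palmitate, had a change of 0.01 ± 0.161.

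**Figure D1:**
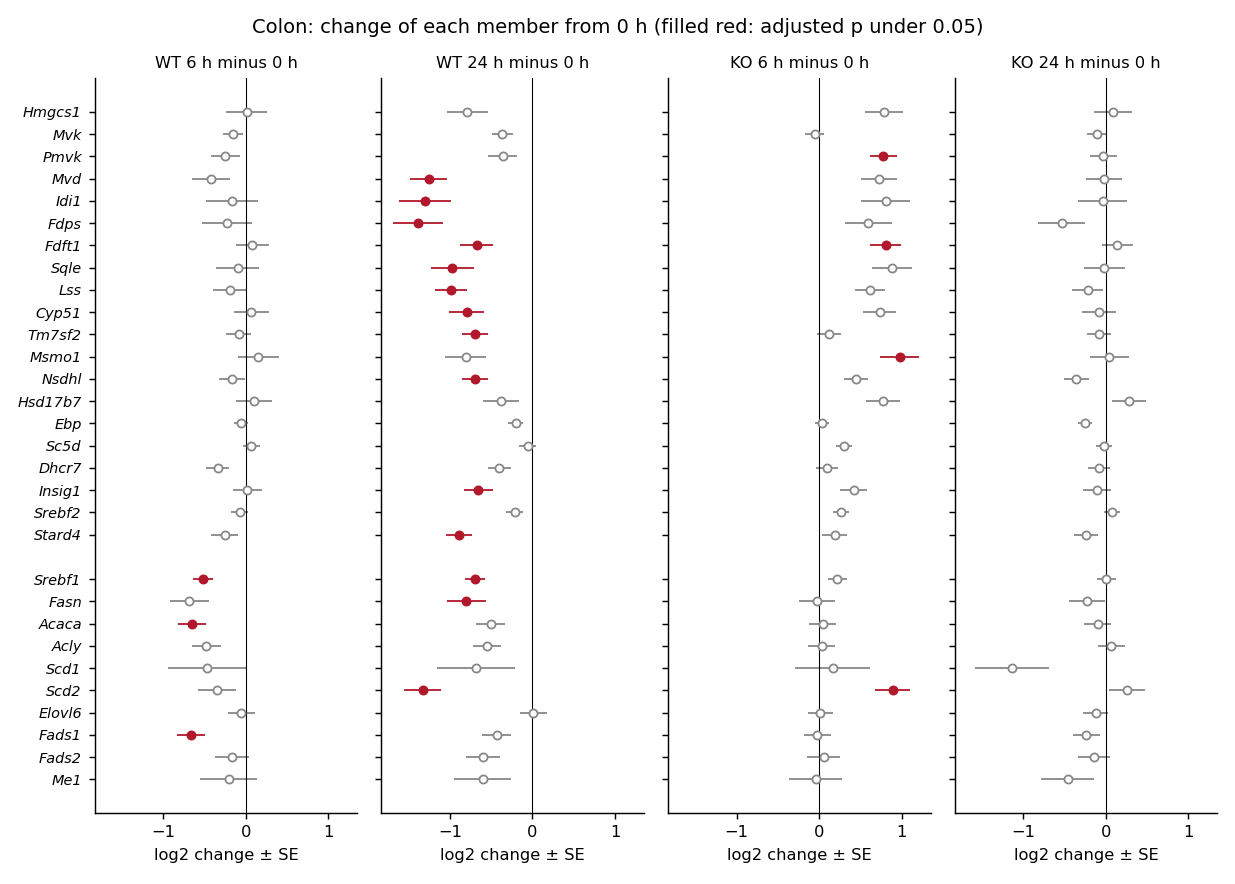
Log2 change from 0 h (x axis, ± SE) of each of the 30 measured genes (y axis, sterol genes above, fatty acid genes below) in WT and KO colon at 6 and 24 h, with filled red points called at an adjusted p under 0.05. In WT the sterol genes have a median of -0.09 at 6 h and all lie below 0 at 24 h, and in KO 19 of 20 lie above 0 at 6 h, with a median of -0.06 at 24 h.

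The WT 24 h arrays were uneven. The mean over the 20 sterol genes was 8.36 on replicate 1 and 8.13 on replicate 5, but 7.48 on both replicates 2 and 3, where the 5 arrays at 0 h lay between 8.29 and 8.80. Replicates 1 and 5 carried squamous marker means of 4.96 and 4.87, against 3.70 and 3.52 on replicates 2 and 3, and replicates 2 and 3 carried pancreatic marker means of 7.78 and 8.86, against 3.95 and 3.88. Of 10 markers of proliferating crypt cells, 6 were called lower in WT colon at 6 h and 4 at 24 h. At 24 h 3 of 6 B and plasma cell markers were also called lower, Cd79b (-1.85 ± 0.473), Ms4a1 (-1.82 ± 0.452) and Cd79a (-1.40 ± 0.367), as were Cps1 (-2.75 ± 0.579), 1 of 8 proximal small intestine markers, and Slc37a2 (-1.82 ± 0.42), 1 of 7 colonocyte markers, of which Car4 was called higher (0.50 ± 0.121). The part of these transcripts in the member values was not tested. Without replicate 1 of WT 24 h the count of called genes went from 14 to 22 of 30 while the share of all genes called in either direction went from 5.29% to 6.46%, with Srebf2 (-0.36 ± 0.0844), Dhcr7 (-0.52 ± 0.144) and Msmo1 (-1.02 ± 0.251) among those added. It was 6 without replicate 3 of WT 24 h and 8 without replicate 2 of WT 24 h, where 2.40% and 3.04% of all genes were called, and 9 without replicate 1, 3 or 4 of WT 0 h, where 2.84% to 4.12% were. With only the WT 0 h and 24 h arrays in the fit, 1 member, Srebf1, was called, against 0.476% of all genes.

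**Figure D2:**
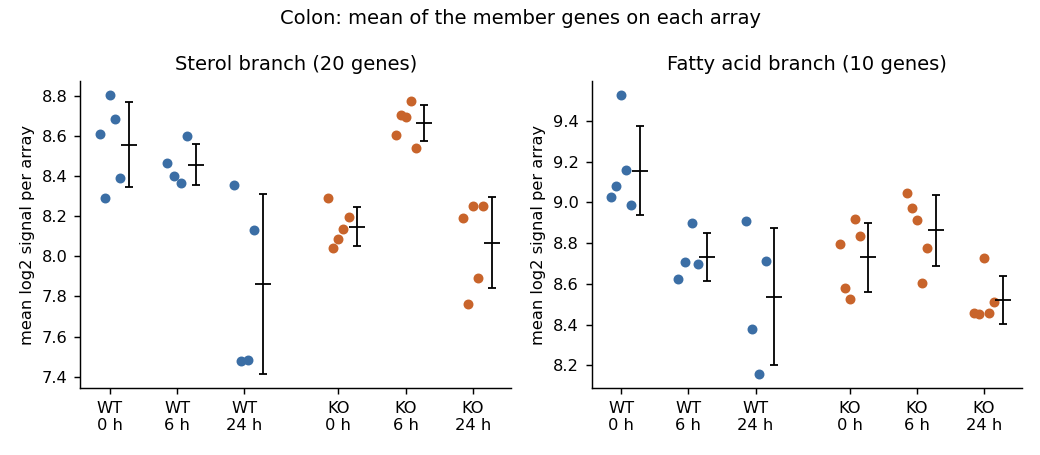
Mean log2 signal per array (y axis) over the 20 sterol genes and the 10 fatty acid genes in the 6 colon groups, 1 point per mouse, with the group mean ± SD beside the points. Replicates 2 and 3 of WT 24 h lie at 7.48 in the sterol panel, and the 5 KO arrays at 6 h lie above all 5 KO arrays at 0 h.

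At 6 h in WT colon the calls were in the fatty acid branch. The test called 0 of 20 sterol genes, while 3 of 10 fatty acid genes were lower and 0 higher, against 0.74% of all genes called lower. At an unadjusted p under 0.05, 1 sterol gene was lower (Dhcr7), as were 6.54% of all genes. The median change was -0.09 in the sterol branch and -0.47 in the fatty acid branch, and all 10 fatty acid genes had a change below 0. Srebf1 stood at 7.66, 7.70, 7.83 and 7.86 on the 4 arrays at 6 h, below all 5 arrays at 0 h, and fell by 0.52 ± 0.121 (1.43-fold, adjusted p = 0.0193). Fads1, the delta-5 desaturase of polyunsaturated fatty acids, stood at 7.77, 7.11, 7.88, 7.06 and 7.23 at 0 h and at 6.82, 6.64, 6.83 and 6.68 at 6 h, and fell by 0.66 ± 0.172 (adjusted p = 0.0365). Acaca, the carboxylase that makes malonyl-CoA, stood at 7.48, 7.41, 7.93, 7.76 and 7.42 at 0 h and at 6.64, 6.93, 7.19 and 7.02 at 6 h, and fell by 0.65 ± 0.174 (adjusted p = 0.0461). Groups did not overlap for any of these 3, nor for Fasn (-0.68 ± 0.234, adjusted p = 0.143), against 1.78% of all genes not overlapping and lower. Without replicate 2 of WT 0 h there were 4 calls, and there were 0 without replicate 1 or 3 of WT 0 h or without replicate 1 or 2 of WT 6 h, and 1 without replicate 4 or 5 of WT 6 h. With both replicates 2 and 3 of WT 0 h left out, whose enterocyte marker means were the highest, 0 were called.

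Between 6 and 24 h in WT colon, 0 of 30 members were called, against 0.242% of all genes, although 14 sterol genes and 1 fatty acid gene were lower at an unadjusted p under 0.05, as were 4.23% of all genes. The sterol median was -0.65, close to the -0.69 from 0 to 24 h, and the fatty acid median was -0.15. Both of these medians rest on the same 24 h arrays. Groups did not overlap for 6 of 20 sterol genes, all lower at 24 h, against 3.33% of all genes. Fdps had a change of -1.16 ± 0.32 (adjusted p = 0.152), Idi1 of -1.13 ± 0.33 (0.172) and Scd2 of -0.98 ± 0.239 (0.09). Without replicate 1 of WT 24 h, 10 members were called lower, 9 sterol genes and Scd2, against 0.718% of all genes.

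In KO colon the called changes at 6 h were upward. The test called 3 of 20 sterol genes higher and 1 of 10 fatty acid genes higher, with 0 lower in either, against 1.26% of all genes called higher. The sterol median was 0.61, the fatty acid median 0.04, and 15 sterol genes were higher at an unadjusted p under 0.05, as were 6.27% of all genes. Groups did not overlap for 11 of 20 sterol genes, all higher at 6 h, against 1.94% of all genes.

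Msmo1, the methyl sterol oxidase after lanosterol, stood at 9.67, 9.27, 9.79, 9.48 and 9.51 at 0 h and at 10.48, 10.50, 10.35, 11.02 and 10.25 at 6 h, and rose by 0.98 ± 0.233 (1.97-fold, adjusted p = 0.029). All 5 arrays at 6 h lay above all 5 at 0 h. Fdft1 rose by 0.81 ± 0.187 (adjusted p = 0.0248), likewise without overlap. Pmvk, the second kinase of the mevalonate steps, stood at 7.23, 6.49, 6.78, 6.63 and 6.99 at 0 h and at 7.67, 7.73, 7.72, 7.19 and 7.69 at 6 h. It rose by 0.78 ± 0.165 (adjusted p = 0.0125), with overlap through replicate 4 at 6 h. Scd2 stood at 12.47, 11.56, 12.43, 12.22 and 12.10 at 0 h and at 13.04, 13.17, 12.94, 12.97 and 13.13 at 6 h, and rose by 0.89 ± 0.214 (adjusted p = 0.0293). The other desaturases and the Srebf1 gene were not called, with Scd1 at 0.16 ± 0.45, Fads1 at -0.02 ± 0.162, Fads2 at 0.05 ± 0.197 and Srebf1 at 0.22 ± 0.114.

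The KO 6 h arrays also carried more muscle transcripts. Of 9 skeletal muscle markers 8 were called higher than at 0 h, and their summed linear signal went from between 180 and 286 to between 518 and 1556. Of 10 squamous markers 0 were called, with summed signal of 162 to 294 at 0 h and 232 to 897 at 6 h, and of 2 tested sebaceous markers 1 was called higher, with summed signal of 16.5 to 17.9 and 18.7 to 40.4. Of these lists only Mc5r, a sebaceous marker, stayed near the array floor on every colon array. Of 5 adipocyte markers tested 0 were called, with a median change of -1.25 and summed signal of 1687 to 6662 at 0 h and 1055 to 2297 at 6 h, and Lep stayed near the floor on every colon array. With the squamous marker mean or the adipocyte marker mean as a covariate, 0 members were called, and the fitted changes of the 4 called genes were then between 0.68 and 1.02. The share of all genes called in those fits is not given, so the loss cannot be read as particular to the members. Of single arrays left out, replicate 2 of KO 0 h left 0 calls, replicate 4 of KO 0 h and replicates 2 and 4 of KO 6 h left 1 each, and replicate 1 of KO 6 h and replicate 5 of KO 0 h left 2 each.

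From 6 to 24 h in KO colon the called changes were downward. The test called 6 of 20 sterol genes and 0 of 10 fatty acid genes lower, against 0.791% of all genes, and groups did not overlap for 11 sterol genes, against 2.56%. The sterol median was -0.69 and the fatty acid median -0.21. Fdps stood at 8.97, 8.90, 8.98, 8.91 and 8.72 at 6 h and at 8.10, 6.97, 8.24, 7.53 and 7.98 at 24 h, and fell by 1.13 ± 0.286 (2.20-fold, adjusted p = 0.0459). Msmo1 fell by 0.93 ± 0.233, Lss by 0.84 ± 0.185, Cyp51 by 0.81 ± 0.202, Pmvk by 0.81 ± 0.165 and Nsdhl by 0.80 ± 0.149, with adjusted p from 0.00903 to 0.0449. For all 6 the lowest array at 6 h lay above the highest at 24 h. The KO 6 h arrays and their muscle and squamous transcripts enter here too, and 5 of 9 skeletal muscle markers were called lower at 24 h. With the squamous marker mean as a covariate 1 member was called, Nsdhl. Leaving out 1 array gave 2 to 5 calls, with 2 without replicate 2 or 3 of KO 6 h or without replicate 2 or 4 of KO 24 h, and 3 without replicate 1 or 4 of KO 6 h or replicate 1 of KO 24 h.

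Between 0 and 24 h in KO colon, 0 of 30 members were called, against 0.183% of all genes. At an unadjusted p under 0.05, 2 sterol genes and 1 fatty acid gene were lower, as were 4.04% of all genes. The sterol median was -0.06 and the fatty acid median -0.13. The sterol means were 8.15 ± 0.0969 (SD, n = 5) at 0 h and 8.07 ± 0.227 (SD, n = 5) at 24 h, and the groups overlapped. Scd1, the main stearoyl-CoA desaturase of liver, ranged from 7.47 to 10.50 over the 28 arrays, with a change of -1.14 ± 0.45 from 0 to 24 h (adjusted p = 0.464).

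**Figure D3:**
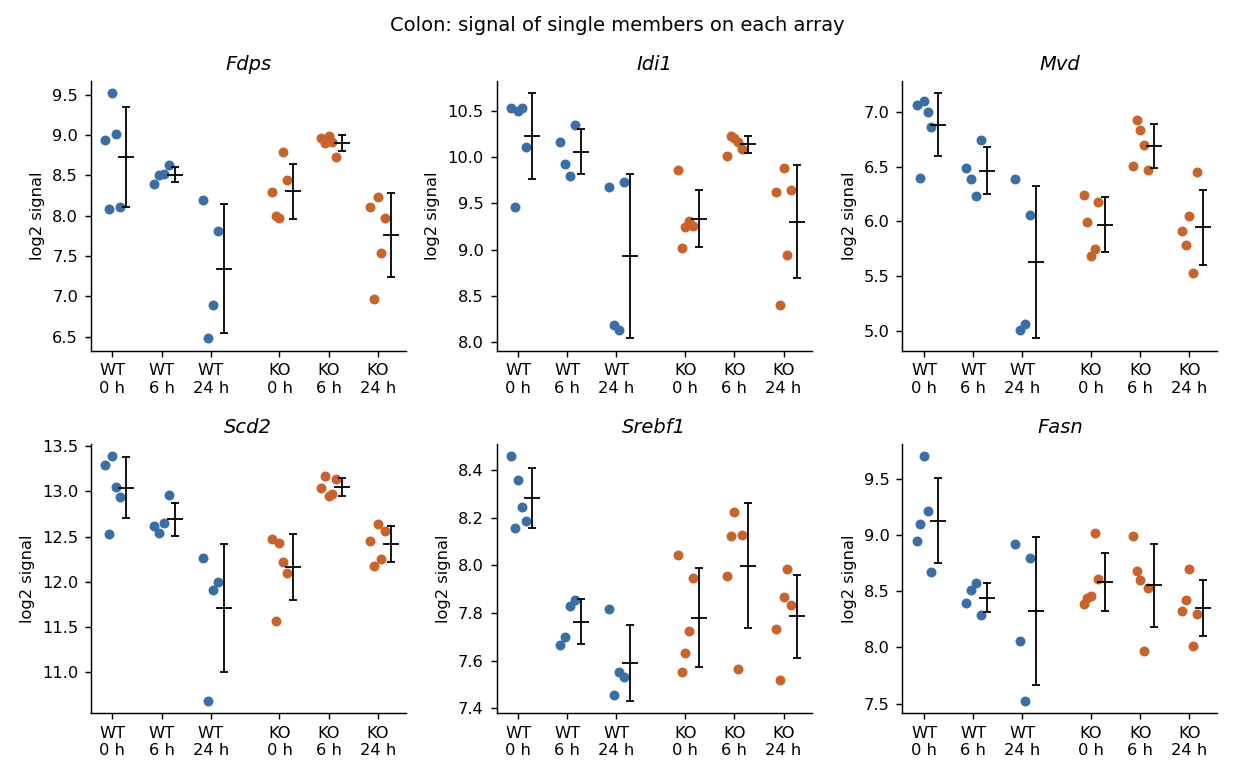
Log2 signal per array (y axis) of single sterol and fatty acid genes in the 6 colon groups, 1 point per mouse, with the group mean ± SD. Fdps, Idi1 and Mvd have their lowest WT values on 24 h replicates 2 and 3. Srebf1 is lower on every WT array at 6 and 24 h than at 0 h, and Scd2 is higher on all 5 KO arrays at 6 h than on those at 0 h.

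In colon the called genotype differences were at 0 h. There KO was lower than WT for 1 of 20 sterol genes and 2 of 10 fatty acid genes, against 0.696% of all genes called lower, and 19 of 20 sterol genes and 9 of 10 fatty acid genes had a difference below 0. Mvd stood at 6.24, 5.99, 5.68, 5.75 and 6.18 in KO, below all 5 WT arrays, and was lower by -0.92 ± 0.217 on the log2 scale (adjusted p = 0.0255). Groups did not overlap for 3 sterol and 3 fatty acid genes, all lower in KO, against 1.43% of all genes. Scd2 was lower by -0.88 ± 0.214 (adjusted p = 0.0291) and Srebf1 by -0.50 ± 0.114 (adjusted p = 0.0206), both without overlap. In the same comparison Cps1 of the 8 proximal small intestine markers was called lower in KO (-2.40 ± 0.546), and 2 of 6 B and plasma cell markers were called higher, Mzb1 (1.33 ± 0.294) and Jchain (0.94 ± 0.177). Their part in the member values was not tested. With batch as a term 0 members were called. That term rests on replicate 1 of KO 0 h, the 1 KO colon array in the WT batch, so the fitted differences (-0.64 for Mvd, -0.57 for Scd2 and -0.24 for Srebf1) are that array against the WT 0 h mean. Leaving out replicate 1 or 3 of WT 0 h or replicate 3 or 4 of KO 0 h left 1 call each, and leaving out replicate 2 of KO 0 h left 0.

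At 6 h, 0 of 30 members differed between the genotypes in colon, against 0.879% of all genes. At an unadjusted p under 0.05, 2 sterol genes were higher and 1 fatty acid gene lower in KO, as were 4.97% and 7.55% of all genes. At 24 h 0 differed, against 0.469%. At an unadjusted p under 0.05, 3 members were higher and 2 lower, as were 4.13% and 5.18% of all genes. Of 13 circadian clock genes, 6 were called higher in KO at 6 h and 1 at 24 h, with Dbp higher by 4.81 ± 0.961 and Per2 by 3.92 ± 0.72 at 6 h, and their part in the sterol values was not tested.

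The difference between the KO and WT responses was tested as an interaction, and 0 of 30 members were called at either time. The interaction at 6 h was called for 0.022% of all genes, and 13 sterol and 5 fatty acid genes were above 0 at an unadjusted p under 0.05, as were 4.36% of all genes. All 20 sterol genes and all 10 fatty acid genes had an interaction above 0, with medians of 0.67 and 0.64. Srebf1 had 0.74 ± 0.166 (adjusted p = 0.111), Scd2 1.24 ± 0.312 (0.129) and Pmvk 1.02 ± 0.241 (0.129). At 24 h the interaction was called for 0.0293% of all genes, 12 sterol and 3 fatty acid genes were above 0 at an unadjusted p under 0.05, as were 3.41% of all genes, and the medians were 0.65 and 0.43. Scd2 had 1.59 ± 0.312 (adjusted p = 0.0675). Both interactions share the 0 h groups, where the 3 called members were lower in KO. At 24 h, Scd2 and Mvd were called without replicate 1 of WT 24 h, and Scd2 alone without replicate 2 of WT 0 h. At 6 h, Srebf1 was called without replicate 4 of KO 6 h (0.85 ± 0.145).

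In jejunum the sterol branch gave no call in any of the 11 comparisons, and 2 fatty acid desaturases made up all 4 calls. At an unadjusted p under 0.05, the number of sterol genes ran from 0 to 9 per comparison. The shares of all genes at that level ran from 2.26% to 9.51% higher and from 2.19% to 9.6% lower. Fads1 was lower at 6 h in both genotypes and at 24 h in WT, and Fads2, the delta-6 desaturase that works ahead of it, was lower at 24 h in KO. These 2 enzymes make the long polyunsaturated fatty acids of membranes from dietary precursors.

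In WT jejunum Fads1 stood at 6.73, 6.79, 7.10, 6.86 and 6.45 at 0 h, at 5.85, 5.60, 6.62, 5.34 and 5.71 at 6 h and at 5.94, 5.41, 5.76 and 5.70 at 24 h. Only replicate 3 at 6 h reached the range at 0 h. Fads1 fell by 0.96 ± 0.217 at 6 h (1.95-fold, adjusted p = 0.0413), in a comparison where 0.169% of all genes were called lower, and by 1.08 ± 0.23 at 24 h (2.12-fold, adjusted p = 0.0156), where 0.843% were. In KO jejunum Fads1 stood at 5.96, 7.19, 6.47, 6.93 and 7.32 at 0 h and at 5.49, 5.86, 5.73 and 5.63 at 6 h, without overlap, and fell by 1.10 ± 0.23 (adjusted p = 0.0249), where 0.308% of all genes were called lower. At 24 h in KO it stood at 6.05, 5.82, 5.88, 6.11 and 5.74 with a change of -0.85 ± 0.217 from 0 h (adjusted p = 0.0655). Markers of gut position differed as well. In KO the mean over proximal small intestine markers was 6.45 to 6.95 at 6 h. At 0 h it was 6.75 and 5.93 on replicates 1 and 3. It was 8.91 to 8.93 on the other arrays, which had the highest Fads1. The KO change at 6 h was not tested among arrays of similar proximal mean. With only the arrays of high proximal mean, the WT change was -0.84 ± 0.191 at 6 h (adjusted p = 0.0871). At 24 h it was -0.98 ± 0.208 (adjusted p = 0.0329). Fads1 was also lower in WT colon at 6 h on the same probe set.

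Fads2 in KO jejunum stood at 5.70, 6.47, 7.18, 6.17 and 6.40 at 0 h and at 4.96, 5.37, 5.17, 5.35 and 5.07 at 24 h. The groups did not overlap, and it fell by 1.20 ± 0.285 (2.3-fold, adjusted p = 0.0462), where 0.425% of all genes were called lower. With only the arrays of high proximal mean, this change was -1.14 ± 0.399 (adjusted p = 0.437). In WT jejunum Fads2 had a change of -0.69 ± 0.285 at 6 h and -0.79 ± 0.302 at 24 h, neither called, and in KO of -0.56 ± 0.302 at 6 h. The sterol median from 0 to 24 h in KO was -0.48, with 18 of 20 genes below 0. At an unadjusted p under 0.05, 4 were lower, as were 7.84% of all genes. The call of Fads2 was lost when any 1 array of replicates 2 to 5 of KO 0 h or of the KO 24 h group was left out. The WT 6 h call of Fads1 was lost without replicate 1, 2, 3 or 4 of WT 0 h or replicate 1, 2, 4 or 5 of WT 6 h, the KO 6 h call without replicate 2, 4 or 5 of KO 0 h or replicate 1, 4 or 5 of KO 6 h. The WT 24 h call was lost without replicate 3 of WT 0 h or replicate 2 of WT 24 h, and in the latter case Srebf1 was called higher (adjusted p = 0.0488). Without replicate 1 of KO 0 h, Fads1 was called in KO at 24 h as well (-1.06 ± 0.199).

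**Figure D4:**
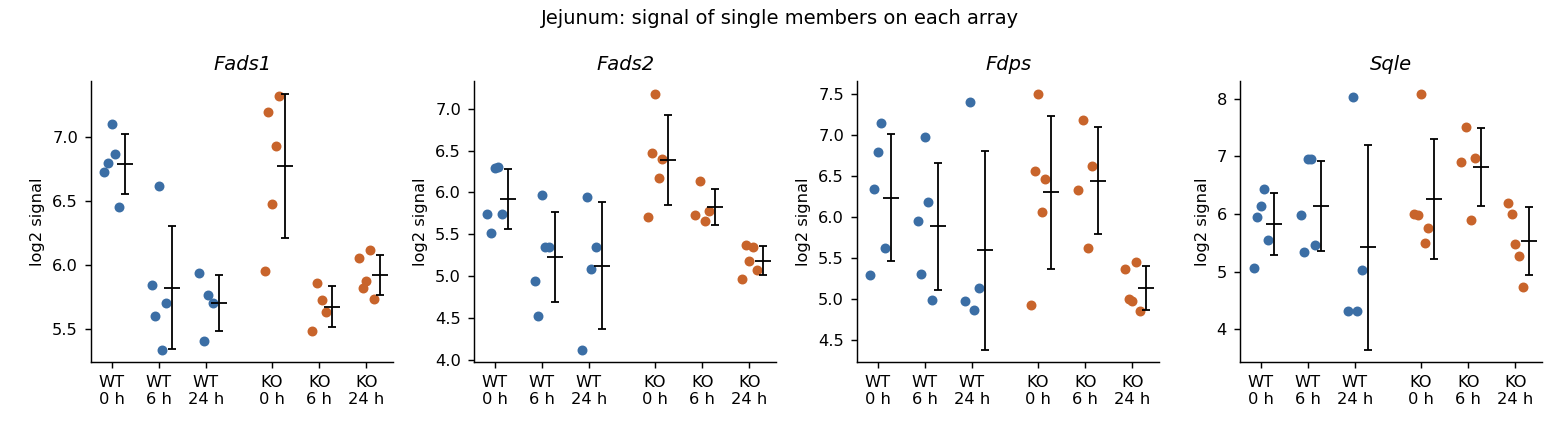
Log2 signal per array (y axis) of Fads1, Fads2, Fdps and Sqle in the 6 jejunum groups, 1 point per mouse, with the group mean ± SD. Fads1 lies between 6.45 and 7.10 in WT at 0 h and between 5.41 and 5.94 in WT at 24 h, and a single WT array at 24 h lies far above the rest for Fdps and Sqle.

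The 2 jejunum arrays with ileal transcripts had the highest sterol means. The mean over 8 markers of proximal small intestine was over 8 on 17 arrays and 7.03 or less on the other 11, among them all 4 KO arrays at 6 h and replicates 1, 2 and 3 of KO 24 h. The ileal arrays, replicate 2 of WT 24 h and replicate 3 of KO 0 h, had the lowest proximal means (6.14 and 5.93) and sterol means of 8.01 and 8.19, where the 26 other arrays lay between 6.57 and 7.63. The other arrays with low proximal means had sterol means of 6.69 to 7.63, overlapping the 6.57 to 7.41 of the 17 arrays with high ones. Hmgcs1, the synthase that opens the branch, was 11.84 and 12.13 on those arrays and 9.57 to 10.93 on the rest. Scd1, a desaturase, was 11.53 on the WT one, the highest of all 28, but 6.99 on the KO one. The WT one also had the highest adipocyte marker mean, 6.85 against 4.64 to 5.89 on the other jejunum arrays. The part of adipocyte transcripts in its Scd1 was not tested.

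**Figure D5:**
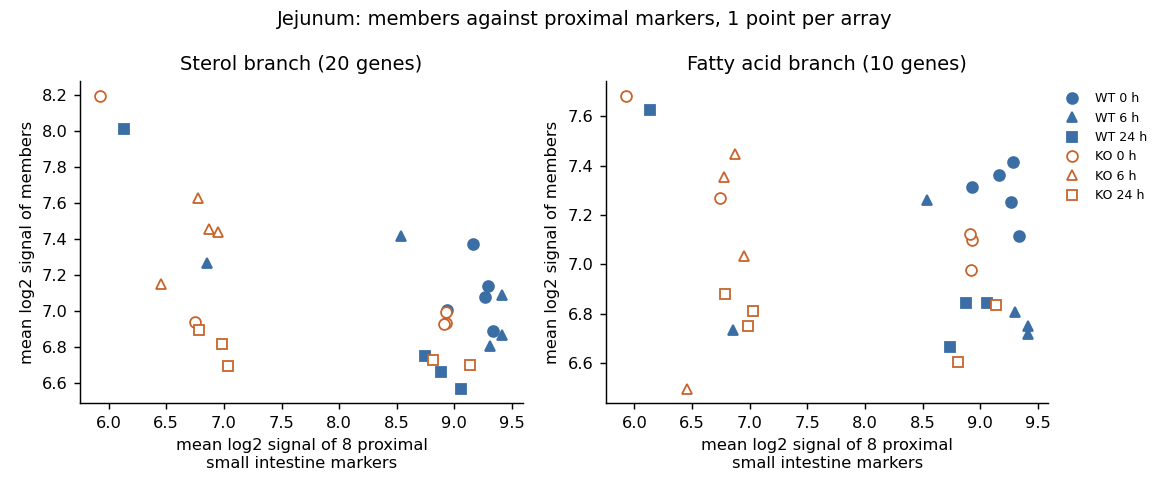
Mean log2 signal over the 20 sterol genes (left) and the 10 fatty acid genes (right) on each jejunum array (y axis) against the mean of 8 proximal small intestine markers (x axis, log2), with symbols for genotype and time. The arrays with ileal transcripts lie at the upper left at 8.01 and 8.19 in the sterol panel, and the KO arrays at 6 h lie at proximal means of 6.45 to 6.95.

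Without those ileal arrays, a setting added once their marker levels were known, the jejunum gave other calls. In KO at 6 h against 0 h, 5 members were called, against 1.20% of all genes: Fads1 lower, and Hmgcs1 (0.73 ± 0.146), Mvd (0.82 ± 0.189), Fdft1 (1.14 ± 0.165) and Scd2 (2.01 ± 0.491) higher, with adjusted p from 0.000627 to 0.0465. The KO 0 h arrays that remain include 3 with proximal means over 8, whereas the KO 6 h arrays have none, so time and position cannot be told apart there. In WT at 24 h against 6 h, 4 members were called, against 1.81% of all genes: Hmgcs1 (-0.81 ± 0.151), Fdft1 (-0.70 ± 0.17) and Sqle (-1.59 ± 0.404) lower and Srebf1 (1.59 ± 0.252) higher. The remaining WT 24 h arrays had proximal means over 8. Replicate 4 of WT 6 h, at 6.85, had the highest Hmgcs1 (10.93) and Fdft1 (8.46) of its group. With only arrays of proximal mean over 8, Hmgcs1 was still called lower (-0.70 ± 0.145, adjusted p = 0.0194), against 2.47% of all genes called. Fdft1 (adjusted p = 0.108) and Sqle (0.0763) did not pass in that fit.

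From 6 to 24 h in WT jejunum 0 of 30 members were called, against 0.755% of all genes, with Srebf1 alone at an unadjusted p under 0.05 (1.10 ± 0.318, adjusted p = 0.101). At that level 7.37% of all genes were higher and 5.47% lower. From 6 to 24 h in KO jejunum the sterol median was -0.66 and the groups did not overlap for 10 of 20 sterol genes, all lower, against 3.39% of all genes, but 0 were called, against 0.117%, with 9 lower at an unadjusted p under 0.05, as were 4.42% of all genes. Fdps stood at 6.33, 7.19, 5.63 and 6.63 at 6 h and at 5.37, 5.0, 4.98, 5.46 and 4.85 at 24 h (-1.31 ± 0.512, adjusted p = 0.361). Sqle stood at 6.90, 7.51, 5.89 and 6.96 and at 6.20, 6.00, 5.47, 5.26 and 4.72 (-1.28 ± 0.605, adjusted p = 0.495). When the 4 arrays at 6 h were set against the 3 arrays at 24 h with proximal means under 8, Hmgcs1 (-0.59 ± 0.0623, adjusted p = 0.0474) and Fdft1 (-0.86 ± 0.0592, adjusted p = 0.0326) were called lower, against 0.147% of all genes called. Fdps (-1.33 ± 0.366) and Idi1 (-0.93 ± 0.216) were not. Distal marker means on these arrays were 8.61 to 8.78 at 6 h but 8.69, 7.74 and 7.38 at 24 h. Time and position thus cannot be told apart here either.

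With only the 17 arrays of high proximal mean, likewise added later, Srebf1 in WT rose by 1.60 ± 0.244 from 6 to 24 h (adjusted p = 0.00314) and also rose from 0 to 24 h (SE 0.233, adjusted p = 0.0492). Its WT values were 9.11, 9.92 and 9.77 on those 3 arrays at 24 h and 7.65 on the ileal one. Scd2 at 0 h was lower in KO by -1.77 ± 0.217 (adjusted p = 0.00209), against 0.169% of all genes called. It stood at 6.54, 6.76 and 6.46 on the 3 KO arrays and at 7.86 to 8.64 on the 5 WT arrays. Those 3 KO arrays differ from WT in batch too. The KO 0 h arrays left out, replicates 1 and 3, stood at 8.56 and 11.54. Replicate 1, which lies in the WT batch, was 0.21 above the WT 0 h mean. In colon Scd2 was also lower in KO at 0 h, where genotype and batch cannot be told apart either.

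Between genotypes in jejunum 0 of 30 members were called at 0, 6 or 24 h, against 0.183%, 2.14% and 0.704% of all genes, and neither interaction was called for any gene, with 0 members at an unadjusted p under 0.05. At 0 h 1 sterol gene, Hsd17b7, was higher and at 24 h Srebf1 was lower in KO at an unadjusted p under 0.05. Of all genes, 5.11% were higher at 0 h and 5.25% lower at 24 h at that level. Without replicate 2 of WT 24 h, Srebf1 was called lower in KO at 24 h (-1.45 ± 0.248, adjusted p = 0.0022), and higher at 24 h than at 6 h in WT (1.59 ± 0.248). At 6 h 5 sterol genes were higher and 1 lower in KO at an unadjusted p under 0.05, as were 9.51% and 7.5% of all genes. Stard4 had 1.01 ± 0.32 (adjusted p = 0.0938) and Elovl6 -1.34 ± 0.416 (adjusted p = 0.0864). All 4 KO arrays at 6 h had low proximal means against 1 of 5 WT arrays. Clock genes differed as well, with 7 of 13 called higher and 1 lower in KO at 6 h.

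Over both tissues, 18 of the 30 measured genes were called in colon at least once and 12 never, and 2 were called in jejunum. The share of all genes called at least once is not given here, so these sums have no background to be read against. In colon Scd2 and Srebf1 were called in 3 comparisons each. The 12 without a call in colon were Hmgcs1, Mvk, Hsd17b7, Ebp, Sc5d, Dhcr7, Srebf2, Acly, Scd1, Elovl6, Fads2 and Me1. For 17 of the 34 called changes another single-gene probe set of the same gene was tested, and 25 of those 26 probe sets had the same sign, 7 of them called. The exception was 1 probe set of Lss from 6 to 24 h in KO colon. Probe sets of Mvd, Lss, Fdft1, Hsd17b7 and Acly, and that of Hmgcs1 in jejunum, carry a suffix for probes shared with other transcripts. Related sequences may add to their signal.

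Some genes of neighbouring pathways were called as well. Of 9 further isoprenoid and sterol genes tested, Lbr, a sterol reductase of the nuclear envelope (-0.50 ± 0.143), and Acat1, the mitochondrial thiolase (-0.40 ± 0.112), fell in WT colon at 24 h. There 2.51% of all genes were called lower. Coq2, of ubiquinone synthesis, fell in KO jejunum at 24 h (-0.49 ± 0.0961), where 0.425% of all genes were called lower. Of 16 further fatty acid and triglyceride genes, Mlxipl, the carbohydrate-responsive factor that works beside Srebf1, fell in WT colon at 24 h (-1.07 ± 0.245, adjusted p = 0.0113), against the same 2.51%. Of 9 genes of SREBP processing, Fbxw7, a ligase that marks nuclear SREBP for breakdown, rose in KO colon at 6 h (0.43 ± 0.0979), where 1.26% of all genes were called higher. Nfya, an NF-Y subunit, fell in KO jejunum at 6 h (-0.91 ± 0.215), where 0.308% of all genes were called lower. Of 9 genes of sterol and lipid uptake 0 were called in any comparison. Abca1, the cholesterol exporter driven by LXR, was higher in KO than WT jejunum at 6 h (2.15 ± 0.488, adjusted p = 0.0181). It was 1 of 7 genes of its list, in a comparison where 2.14% of all genes were called. Of 6 genes of fasting and fatty acid oxidation tested in jejunum, Ppara, a receptor that drives fatty acid oxidation, was higher in KO than WT at 6 h (1.48 ± 0.335, adjusted p = 0.0175). Ppara also rose in WT from 6 to 24 h (1.43 ± 0.335), where 0.755% of all genes were called. Angptl4, an inhibitor of lipoprotein lipase, was lower in KO at 24 h (-2.63 ± 0.608, adjusted p = 0.0396), where 0.704% of all genes were called. In colon 0 of 7 were called.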

How the data were processed

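The values are log2 signals of 45101 Affymetrix probe sets, deposited by the authors as normalized log2 tables, 1 per tissue. GCRMA and RMA are both listed per the submitters' processing notes, and which of them gave these values is not stated. The lowest value was 2.28 in colon and 2.32 in jejunum, reached by 25.6% to 31.2% of the probe sets on an array, so low signals have no order. Some members repeat 1 value above this floor on several arrays. Mvk does so at 4.86 in colon and 4.17 in jejunum, and Pmvk at 5.15 in KO jejunum at 24 h. Arrays that share such a value have no order for that gene. Of the array columns in the tables, 55 equalled the series' value table and 1 could not be matched to a sample by name and was not used. The array of that sample, KO colon 24 h replicate 3, was read from the value table, and its batch was inferred by elimination. Batches are those written in the names of the array files.

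Probe sets annotated to 1 gene (34958 of 45101) were kept, the one with the highest mean per tissue stood for its gene, and the lowest 25% of gene means were left out. limma 3.58.1 in R 4.3.3 fitted 1 mean per group with an intensity trend, per tissue, with two-sided tests and Benjamini-Hochberg adjustment within each of 22 comparisons. Tissues were normalized separately and were not compared. Within a tissue each array is a different mouse, and the number of arrays limits the precision. The steps were tested on simulated data. The named genes were the members with the largest called changes per branch and tissue, and other members are named to complete the branch. Genes, lists and markers were chosen with earlier results of these data known. Alternatives changed the filter, probe set choice, trend, scaling, batch, replicate block and arrays included.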

Additional observations from a re-analysis of the deposited data

Results flagged for a closer look

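In 6 of 114 groups of arrays tested, 1 array stood apart from the rest by Dixon's criterion at the 95% level. Chance gives about 1 in 20 groups. Of these, 4 belong to the arrays with ileal transcripts. The sterol mean of WT jejunum at 24 h was 8.01 on replicate 2 and 6.57 to 6.75 on the other arrays, and Fdps there was 7.41 against 4.87 to 5.13. The sterol mean of KO jejunum at 0 h was 8.19 on replicate 3 and 6.93 to 7.0 elsewhere, and Sqle there was 8.08 against 5.50 to 6.00. The fatty acid mean of WT jejunum at 6 h was 7.26 on replicate 3 and 6.72 to 6.81 elsewhere. The fatty acid mean of KO colon at 24 h was 8.73 on replicate 3 and 8.45 to 8.51 elsewhere, and that array had a pancreatic marker mean of 10.11 against 3.94 to 4.22, whose part was not tested.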

How the results depend on the processing

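No called change of a member turned its direction. Over 396 values of the 34 called changes under alternatives, 287 stayed past the threshold and 109 did not, and all 34 stayed past it under 75th percentile scaling and without the intensity trend. Of 321 values with 1 array left out, 187 stayed past it. Of 252 counts of called members, 204 were within 1.5 times the reported count. In each tissue the batch term rests on replicate 1 of KO 0 h alone. It sets that array against WT at 0 h and drops it from the KO time comparisons, so it is no test over several arrays. The cause of the other moves that follow was not tested. Except where a share of all genes is printed, counts under alternatives or with arrays left out are of members alone. A loss or gain of calls over all genes is then not separated from one among the members.

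In colon, WT at 6 h (3 called) gave 1 without the filter on low means, 1 with the mean of probe sets, 1 with only the groups compared, 1 with the replicate block and 0 without WT 0 h replicates 2 and 3. WT at 24 h (14) gave 9 without the filter and 1 with only the groups compared. KO at 6 h (4) gave 2 without the filter and 0 with the adipocyte or the squamous covariate. KO from 6 to 24 h (6) gave 3 without the filter, 3 with the mean of probe sets, 3 with all probe sets and 1 with the squamous covariate. The difference at 0 h (3) gave 0 with only the groups compared, 0 with batch as a term, 1 without WT 0 h replicates 2 and 3 and 1 with the adipocyte covariate. The difference at 6 h (0) gave 1 with only the groups compared, Fdps. The 24 h interaction (0) gave 1 with the replicate block and 1 with the proximal covariate, both Scd2, and WT from 6 to 24 h (0) gave 1 with the block, Scd2.

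In jejunum, WT at 6 h (1) gave 0 without the filter, with all probe sets, with only the groups compared, with the replicate block and on proximal arrays. WT at 24 h (1) gave 0 without the ileal arrays and 3 on proximal arrays. KO at 6 h (1) gave 0 with only the groups compared and 5 without the ileal arrays. KO at 24 h (1) gave 0 without the filter, with all probe sets, with only the groups compared, without the ileal arrays, on proximal arrays and with the adipocyte covariate, and 2 with batch or the proximal covariate. WT from 6 to 24 h (0) gave 4 without the ileal arrays, 2 on proximal arrays and 1 with the adipocyte covariate, and KO from 6 to 24 h (0) gave 2 with only the groups compared and 2 on its arrays with low proximal means. The differences at 0, 6 and 24 h (0 each) gave 1 on proximal arrays, 2 with the mean of probe sets or 1 with batch, and 1 without the ileal arrays.

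With 1 array left out, counts in colon ran from 0 to 4 for WT at 6 h, 6 to 22 for WT at 24 h, 0 to 10 for WT from 6 to 24 h, 0 to 4 for KO at 6 h, 2 to 5 for KO from 6 to 24 h, 0 to 4 for the difference at 0 h, 0 to 1 for the 6 h interaction and 0 to 2 for the 24 h interaction. In jejunum they ran from 0 to 2 for KO at 24 h and from 0 to 1 for WT at 6 h, WT at 24 h, WT from 6 to 24 h, KO at 6 h and the difference at 24 h.

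Replicate numbers recur across groups but were not shown to pair mice: over 65 pairs per tissue the median correlation of deviations was 0.0101 in colon and 0.0121 in jejunum, with 15 and 22 pairs over 0.1. With the replicate block, 30 of the 34 called changes stayed past the threshold.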
